A study of Danio rerio with 15 samples.

Results

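The genes of the Ran GTPase cycle, the switch that gives nuclear transport its direction, were followed in zebrafish embryos around the start of zygotic transcription. The genes taken by name were ran, rcc1, ranbp1, ranbp2, rangap1a, rangap1b and nutf2l. Of these 7, 6 were found by the symbol in the table, and ranbp2 was found by its gene identifier (ENSDARG00000093125), which the table lists without a symbol and the reference gene table names RANBP2. They are 7 of 23726 genes, and all 7 were among the 13493 that averaged at least 1 FPKM over the libraries and were tested. FPKM are mapped fragments scaled to transcript length and to the size of the library, so levels can be set side by side between genes.

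Ran is a small GTPase that is loaded with GTP on chromatin and made to hydrolyse it in the cytoplasm. The exchange factor Rcc1 sits on chromatin, while the activating protein RanGAP1 works outside the nucleus with the Ran-binding proteins RanBP1 and RanBP2, so Ran-GTP is high inside the nucleus. Ran-GTP there releases cargo from importins and loads exportins, NTF2 brings Ran-GDP back into the nucleus, and in dividing cells Ran-GTP near chromosomes also guides spindle and nuclear pore assembly.

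Poly(A) RNA came from whole dechorionated embryos in 15 libraries. Wildtype embryos at 3, 4 and 4.5 hours post fertilization (hpf) gave 6 libraries, 1 per stage for each of 2 control series. One series is matched to the nup133 lines (the nup133 set) and the other to Melys (the elys set). The lines were MZnup133, labelled a nup133 knockout, Melys, labelled an elys knockout, and Tgnup133, labelled as transgenic overexpression of nup133, each with 1 library per stage. Nup133 is a scaffold protein of the nuclear pore and Elys, encoded by ahctf1, starts pore assembly on chromatin. No source used here gives the transgene's promoter, the mutant alleles or the number of embryos or clutches behind a library. The p-values thus measure only the spread between these libraries, which may be technical. In the comparisons of a line over 3 stages, the stages served as the replicates of that line. The spread there also holds any difference of the line's effect between stages.

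In MZnup133 the targeted gene nup133 was nearly absent, at 0.431, 0 and 0.208 FPKM against 12.6, 13.1 and 11.7 in its wildtype, and Tgnup133 had 18.0, 18.4 and 16.4. In Melys ahctf1 stood at 13.5, 25.8 and 24.1 FPKM against 18.7, 26.8 and 19.5, so its RNA level does not check that label. The summed level of 10 early zygotic marker genes ran from 16.7 to 939 FPKM over the stages in wildtype of the nup133 set and from 20.3 to 742 in that of the elys set. It ran from 38.8 to 1082 in Tgnup133, from 4.21 to 255 in MZnup133 and from 9.42 to 776 in Melys. The sum is weighted to the most abundant markers. Gene by gene over 3 stages, 9 of the 10 were below the matched wildtype in Melys, 10 in MZnup133 and 1 in Tgnup133. Their median log2 differences were -0.95, -1.57 and 0.37, against 0.07, 0.15 and -0.04 for all genes tested. The sum of 8 maternal oocyte markers at 4.5 hpf was 364 and 551 FPKM in wildtype, 364 in Tgnup133, 954 in MZnup133 and 1071 in Melys. Mitochondrially encoded RNA took 4.76% to 6.53% of the FPKM sum in the 6 MZnup133 and Melys libraries and 7.29% to 10.2% in the other 9. Adult tissue and blood markers summed to at most 7.10 FPKM, with hbba1 at 0 in every library. Since the embryos were sampled whole, fewer cells of a type and less RNA per cell cannot be told apart.

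The levels of the 7 genes covered a wide range. The GTPase gene ran was the highest, with a median of 628 FPKM over the 15 libraries, and ranked between 35 and 133 among all genes of a library. Its exchange factor gene rcc1 followed with a median of 593 FPKM and was the steadiest, its highest library being 1.41 times its lowest. The Ran-GTP binding gene ranbp1 had a median of 195 FPKM and the Ran import gene nutf2l 107. The pore filament gene ranbp2, with 37.4 FPKM, and the GTPase activating genes rangap1b, with 30.8, and rangap1a, with 12.2, were lower, so exchange factor RNA exceeded RanGAP1 RNA of both copies by 9.69 to 19.4 times in every library. RNA levels do not give protein levels, since the egg also supplies protein.

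In wildtype, ran and ranbp1 rose between 3 and 4.5 hpf, rcc1 rose less, and rangap1b fell. These and all other levels are of poly(A) RNA, and total RNA of a gene was not measured. The ran level was 628, 822 and 1139 FPKM at 3, 4 and 4.5 hpf in the nup133 set and 600.1, 704 and 872 in the elys set. Both series rose at each step, and the stages did not overlap between the 6 libraries. On the log2(FPKM + 1) scale used for all fitted differences, ran rose by 0.70 ± 0.10 (SE), which is 1.62-fold, with a limma adjusted p of 0.00961. The ranbp1 level was 164, 235 and 300.3 FPKM in the nup133 set and 168, 204 and 243 in the elys set. It rose by 0.70 ± 0.11 (adjusted p 0.012), again with no overlap between stages.

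The rcc1 level was 553, 652 and 706 FPKM in the nup133 set and 544, 593 and 634 in the elys set. It rose by 0.29 ± 0.07 (adjusted p 0.035), with the nup133 set at 4 hpf above the elys set at 4.5 hpf. The activating gene rangap1b stood at 33.7, 30.1 and 22.9 FPKM in one series and at 41.6, 42.9 and 26.9 in the other. Both 4.5 hpf libraries lay below all earlier ones, and the fall was 0.58 ± 0.13 on the log2 scale (adjusted p 0.03). Its paralog rangap1a had 9.42, 8.44 and 14.5 FPKM and 7.01, 13.04 and 12.8, with a difference of 0.68 ± 0.29 that did not pass (adjusted p 0.139). The sum of both RanGAP1 copies went from 43.2 to 37.3 FPKM in the nup133 set and from 48.7 to 39.7 in the elys set. The share contributed by rangap1a was 21.8% and 14.4% at 3 hpf and 38.8% and 32.3% at 4.5 hpf. How fragments that match both copies were assigned is unknown, so the split between them is uncertain.

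The wildtype series parted for ranbp2 and, at 4.5 hpf, for nutf2l, but not for these alone. At 4 hpf the elys set stood at 155% of the nup133 set for rangap1a and 143% for rangap1b. At 4.5 hpf it stood at 76.5% for ran, 80.9% for ranbp1 and 89.8% for rcc1. The ranbp2 level was 31.5, 34.5 and 32.4 FPKM in the nup133 set and 18.4, 22.4 and 25.2 in the elys set, whose libraries were the lowest of all 15. Its change with stage was 0.23 ± 0.14 (adjusted p 0.255). The nutf2l level was 102, 145 and 113 FPKM in the nup133 set and 100.5, 147 and 153 in the elys set. Both series stood higher at 4 hpf than at 3 hpf, after which one was lower and the other was not, and the difference from 3 to 4.5 hpf was 0.37 ± 0.14 (adjusted p 0.109).

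Of the 7 genes, 4 passed from 3 to 4.5 hpf in wildtype, where 37% of the 13493 genes tested passed. The 4 were 3 that rose, against 14.1% of all genes, and 1 that fell, against 22.8%. The median difference of the 7 was 0.37 and that of all genes tested -0.16. Within the shorter steps limma called 0 of the 7. From 3 to 4 hpf 6.94% of genes passed (3.61% rose, 3.34% fell), and from 4 to 4.5 hpf 5% (1.76% rose, 3.23% fell). An unadjusted p under 0.05 was reached by 3 and 3 of the 7, and by 3427 and 4093 of the 13493 genes tested. The calls of ran and ranbp1 were lost without the 3 hpf wildtype library of the nup133 set (differences of 0.58 and 0.55, adjusted p 0.0662 and 0.0673) and without its 4.5 hpf library (0.58 and 0.59, adjusted p 0.0589 and 0.0764). Those of rcc1 and rangap1b were lost without any 1 of the 6 wildtype libraries, with adjusted p from 0.0857 to 0.2 and from 0.0696 to 0.158. Median-ratio scaling put the all-gene median at 0.07 and turned the split of called genes from 1909 higher and 3077 lower to 3026 and 2345. Under it rangap1b changed by -0.30 and did not pass (adjusted p 0.148), while ranbp2 (0.51, adjusted p 0.032) and nutf2l (0.66, adjusted p 0.0174) did.

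**Figure D1:**
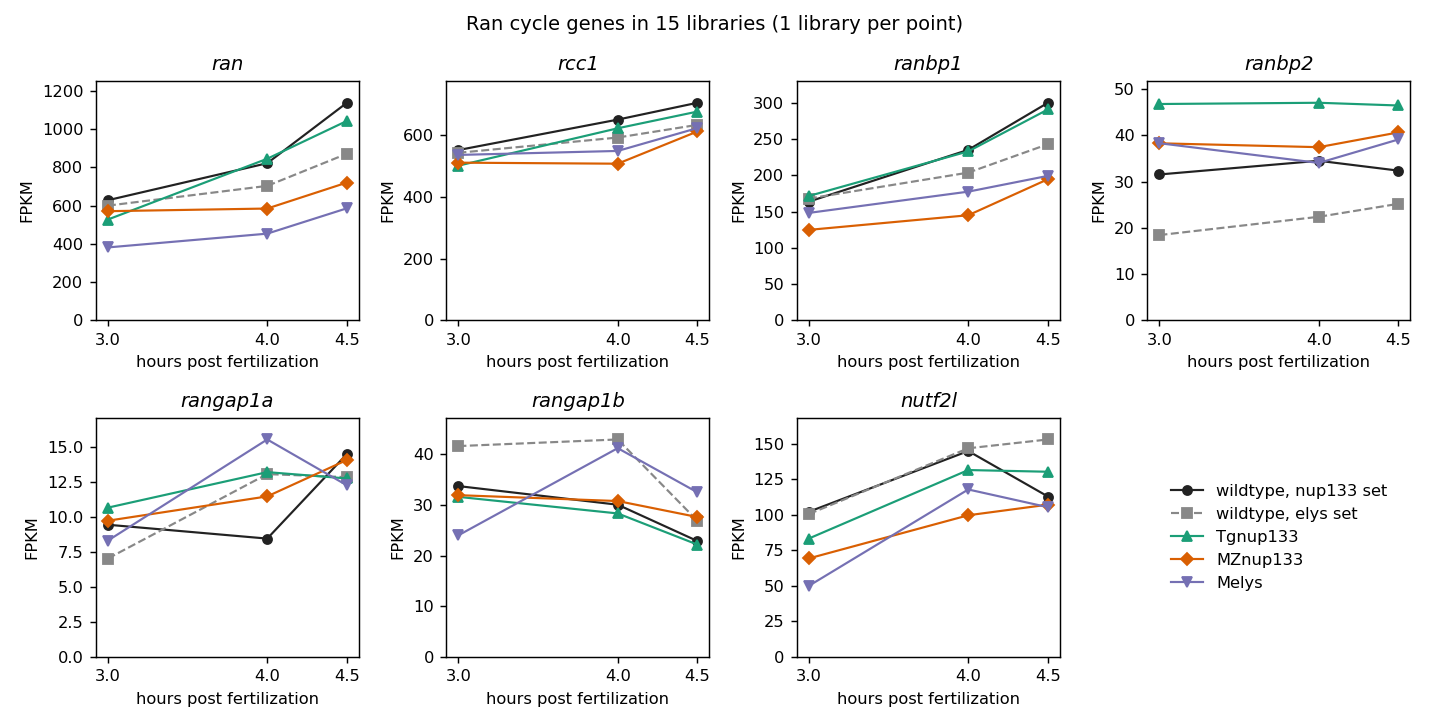
FPKM of each of the 7 genes (vertical axis, from 0) against stage in hours post fertilization, 1 library per point, with lines joining the libraries of a series. The ran level is lowest in Melys at every stage, MZnup133 lies further below the wildtype lines at 4 and 4.5 hpf than at 3 hpf, and ranbp2 is lowest in elys-set wildtype.

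In MZnup133 embryos, ran and ranbp1 were lower than in the matched wildtype. The ran level was 571, 585 and 721 FPKM at 3, 4 and 4.5 hpf, against 628, 822 and 1139 in wildtype. At 4.5 hpf ran thus stood between the wildtype libraries of 4 hpf, at 704 and 822 FPKM. The level was 90.8%, 71.1% and 63.3% of the matched wildtype, and over 3 stages ran fell by 0.43 ± 0.12 (limma adjusted p 0.0322, lower at 3 of 3 stages). The matched wildtype library of 4.5 hpf had the highest ran level of all 15, and that of the elys set had 872 FPKM. Against both wildtype series, with no control set term, ran was 0.32 ± 0.11 lower and passed (adjusted p 0.0428). The ranbp1 level was 125, 145 and 195 FPKM, or 76.2%, 61.6% and 64.8% of wildtype. It fell by 0.57 ± 0.08 (adjusted p 0.0019, lower at 3 of 3 stages), and its 3 hpf library was the lowest of all 15.

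Other members did not pass in MZnup133. The exchange factor gene rcc1 had 512, 508 and 613 FPKM, lower at 3 of 3 stages, with a difference of -0.22 ± 0.08 (adjusted p 0.0606). The import gene nutf2l had 69.3, 99.6 and 107 FPKM, lower at 3 of 3 stages, with -0.39 ± 0.15 (adjusted p 0.0823). At 4.5 hpf nutf2l reached 94.9% of its wildtype, after 67.8% at 3 hpf and 68.8% at 4 hpf. On the hydrolysis side ranbp1 fell, as given above, while the RanGAP1 genes and ranbp2 showed no call. The rangap1a level was 9.71, 11.4 and 14.0 FPKM, that of rangap1b 31.9, 30.8 and 27.6, and that of ranbp2 38.3, 37.4 and 40.6. Their differences were 0.13 with a 95% interval from -0.29 to 0.56, 0.07 from -0.34 to 0.49, and 0.24 from -0.05 to 0.52. Against both wildtype series, with no control set term, ranbp2 was 0.52 higher and nutf2l 0.46 lower on the log2 scale. Both passed (limma adjusted p 0.037 and 0.0197). That fit brings in the unmatched elys-set wildtype, whose ranbp2 level was 18.4 to 25.2 FPKM, against 31.5 to 34.5 in the matched wildtype.

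Thus 2 of the 7 fell and 0 rose in MZnup133, where 22% of genes tested passed (8.32% fell, 13.7% rose). The median difference of the 7 was -0.22 and that of all genes 0.15. With median-ratio scaling the all-gene median was -0.01, the split went from 1846 higher and 1122 lower to 1380 and 1618, and rcc1 (-0.42, adjusted p 0.0442) and nutf2l (-0.58, adjusted p 0.0217) also passed. The ran call was lost without the nup133-set wildtype library at 3 hpf (-0.47, adjusted p 0.0688), 4 hpf (-0.45, 0.0959) or 4.5 hpf (-0.37, 0.147), and without that of the elys set at 4 hpf (-0.43, 0.0543) or 4.5 hpf (-0.43, 0.0518). Without the 4 hpf or the 4.5 hpf libraries of all lines neither gene passed, ran with -0.40 and -0.31 (adjusted p 0.264 and 0.292) and ranbp1 with -0.51 and -0.54 (0.105 and 0.056), whereas without the 3 hpf libraries rcc1 also passed (-0.28, 0.0298). Without a filter on low values ran had an adjusted p of 0.0684. In the same libraries the early zygotic sum was 104 FPKM at 4 hpf and 255 at 4.5 hpf, against 433 and 939 in wildtype. The maternal sum was 1423 and 954, against 754 and 364, and the part of these markers in these differences was not tested.

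In Melys embryos, ran and nutf2l were lower and ranbp2 was higher than in the matched wildtype. The ran level was 381, 453 and 586 FPKM, against 600.1, 704 and 872 in wildtype. This was 63.5%, 64.4% and 67.2% of wildtype, and the Melys library at 4.5 hpf lay below both wildtype libraries of 3 hpf. Over 3 stages ran fell by 0.62 ± 0.12 (limma adjusted p 0.0118, lower at 3 of 3 stages). The nutf2l level was 49.96, 118 and 105 FPKM, or 49.7%, 80.2% and 68.8% of wildtype. It fell by 0.61 ± 0.15 (adjusted p 0.028, lower at 3 of 3 stages), and its 3 hpf library was the lowest of all 15. At 3 hpf ran in Melys was also the lowest of all 15 libraries, and the early zygotic sum of that library was 9.42 FPKM against 20.3 in its wildtype. In MZnup133 at 3 hpf the sum was 4.21 FPKM against 16.7, with ran at 90.8% of wildtype. A link between ran and this sum was not tested.

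The ranbp2 level in Melys was 38.3, 34.0 and 39.1 FPKM, against 18.4, 22.4 and 25.2 in its wildtype. It rose by 0.74 ± 0.13 (limma adjusted p 0.00645, higher at 3 of 3 stages). The low side of this comparison is the control, since elys-set wildtype had 18.4 to 25.2 FPKM and the other 12 libraries 31.5 to 47.1. Against both wildtype libraries of each stage, with no control set term, ranbp2 stood 0.46 higher and did not pass (adjusted p 0.0815).

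The other members did not pass in Melys. The rcc1 level was 537, 549.7 and 624 FPKM, 92.6% to 98.7% of wildtype, and its difference of -0.05 had a 95% interval from -0.22 to 0.12. The ranbp1 level was 148, 178 and 199 FPKM, lower at 3 of 3 stages, with -0.22 ± 0.08 (adjusted p 0.127), and it passed with no control set term (-0.30, adjusted p 0.0313). The rangap1a level was 8.29, 15.5 and 12.2 FPKM, with a difference of 0.13 and an interval from -0.30 to 0.55. The rangap1b level was 24.0, 41.2 and 32.5 FPKM, with -0.19 and an interval from -0.60 to 0.23. It was 57.7% of wildtype at 3 hpf, 96.0% at 4 hpf and 121% at 4.5 hpf, so the sign was not the same at all stages.

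Thus 2 of the 7 fell and 1 rose in Melys, where 10.1% of genes tested passed (4.65% fell, 5.48% rose). The median difference of the 7 was -0.19 and that of all genes 0.07. Median-ratio scaling kept the calls of all 3 and turned the split over all genes from 740 higher and 628 lower to 605 and 805. The calls of ran were lost without the elys set wildtype library of 3 hpf (-0.60, adjusted p 0.0663), 4 hpf (-0.61, 0.085) or 4.5 hpf (-0.64, 0.0653). Those of nutf2l were lost without the same library at 3 hpf (-0.42, 0.146) or 4.5 hpf (-0.65, 0.109). Without the 4 hpf libraries 0 of the 7 passed, although ran differed by -0.61, ranbp2 by 0.82 and nutf2l by -0.76 (adjusted p 0.211, 0.143 and 0.182). The same held without the 4.5 hpf libraries, with -0.64, 0.80 and -0.65 (adjusted p 0.112, 0.073 and 0.127). Without the 3 hpf libraries nutf2l did not pass (-0.42, adjusted p 0.102), nor did it without a filter on low values (-0.61, 0.0503). The share of mitochondrial RNA was also lower in both depleted lines, and its part in these differences was not tested.

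**Figure D2:**
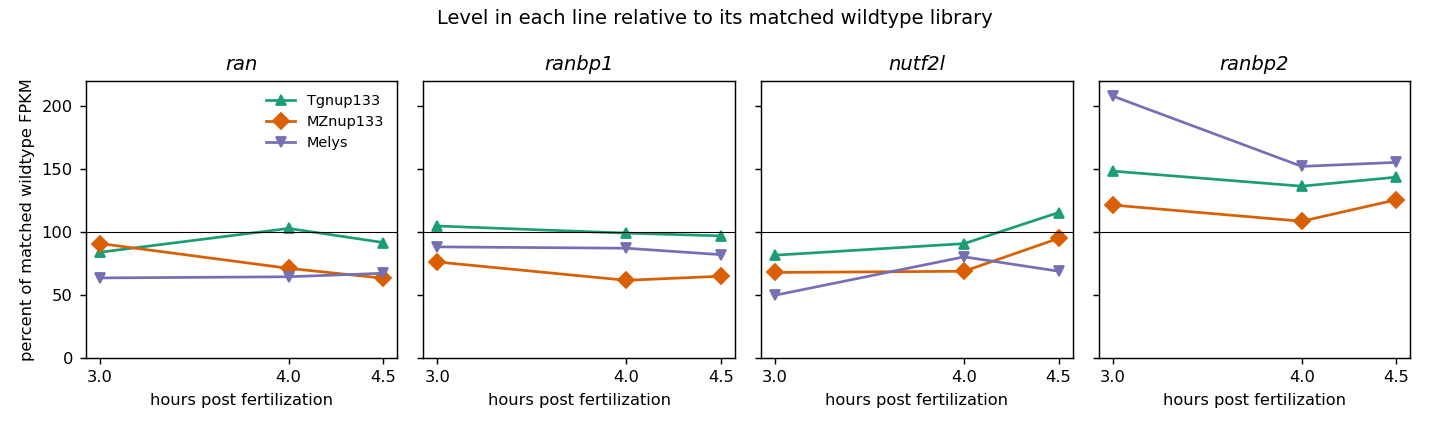
FPKM of ran, ranbp1, nutf2l and ranbp2 in each line as a percentage of the matched wildtype library (vertical axis, line at 100) against stage, 1 library per point. For ran, MZnup133 goes from 90.8% to 63.3% while Melys stays between 63.5% and 67.2%.

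In Tgnup133 embryos limma called 0 of the 7 genes, where 1.95% of genes tested passed (0.8% rose, 1.15% fell). An unadjusted p under 0.05 was reached by 1 of the 7, and by 1998 of the 13493 genes tested. The ran level was 527, 846 and 1044 FPKM, 83.9%, 103% and 91.6% of wildtype, and its difference of -0.11 had an interval from -0.38 to 0.16. The ranbp1 level was 172, 233 and 291 FPKM, with a difference of 0.00 and an interval from -0.18 to 0.19. The gene that came nearest was ranbp2, at 46.8, 47.1 and 46.5 FPKM, the 3 highest of all 15 libraries. Its difference of 0.50 ± 0.13 did not pass against the matched wildtype (limma adjusted p 0.0867). Against both wildtype series, with no control set term, it was 0.78 and passed (adjusted p 0.0217). That fit brings in the unmatched elys-set wildtype, whose ranbp2 levels of 18.4 to 25.2 FPKM were the lowest of all 15 libraries. The remaining members, rcc1 (-0.09), rangap1a (0.19), rangap1b (-0.07) and nutf2l (-0.07), had adjusted p-values from 0.676 to 0.909.

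**Figure D3:**
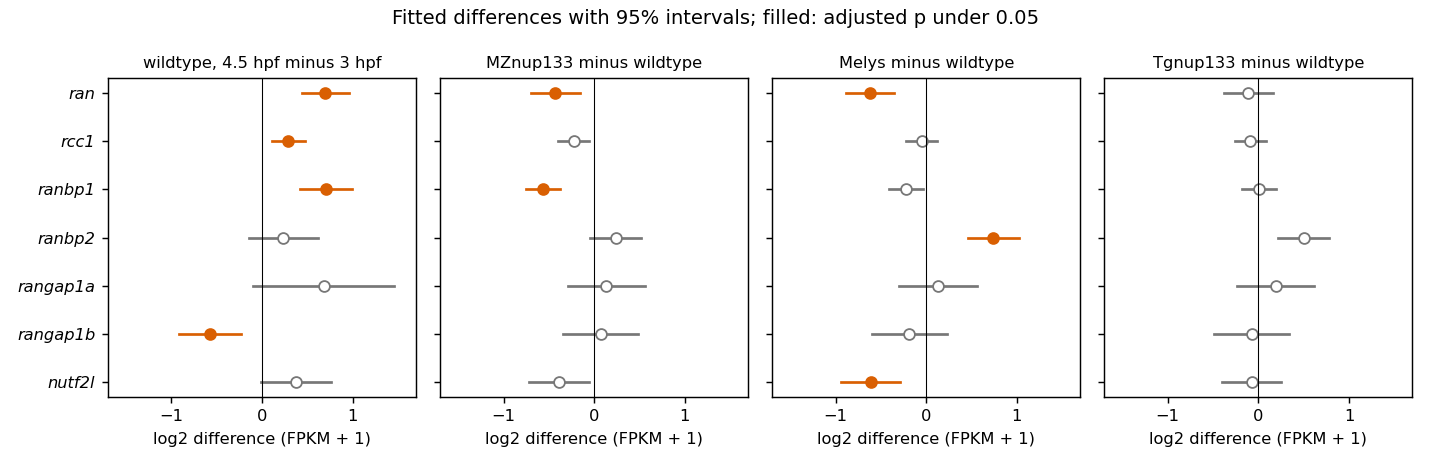
Fitted log2 differences (points) with 95% intervals (bars) for the 7 genes in wildtype over time and in each line against its matched wildtype over 3 stages. Filled orange points have a limma adjusted p under 0.05: ran, rcc1, ranbp1 and rangap1b over time, ran and ranbp1 in MZnup133, ran, ranbp2 and nutf2l in Melys, and no gene in Tgnup133.

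The differences between lines were tested directly. Between the effects of MZnup133 and of Melys 0 of the 7 passed in limma, where 5.27% of genes passed (2.76% higher, 2.51% lower). Of the 13493 genes tested 2603 had an unadjusted p under 0.05, and of the 7 members 2 did. These 2 were ranbp1, 0.35 ± 0.12 lower in the MZnup133 effect (adjusted p 0.138), and ranbp2, 0.50 ± 0.18 lower (adjusted p 0.157). For ran the difference was 0.19 with a 95% interval from -0.19 to 0.57. Against Tgnup133, 1 of the 7 fell in MZnup133, where 28.6% of genes tested passed (19% higher, 9.62% lower). This was ranbp1, by 0.57 ± 0.08 (adjusted p 0.00174), a call that was lost without the 4 hpf libraries (-0.52, adjusted p 0.097). Median-ratio scaling called 5 of the 7 lower and turned the split over all genes from 2561 higher and 1298 lower to 1748 and 2130. The ran difference of -0.32 ± 0.12 did not pass (adjusted p 0.0741), and without the 3 hpf libraries it was -0.53 and passed (adjusted p 0.00406). Both comparisons with MZnup133 share its libraries, and MZnup133 and Tgnup133 share their wildtype controls.

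Whether the change from 3 to 4.5 hpf differed from that of wildtype was tested as well, with the mean change of both wildtype series as the reference. In MZnup133 ran went up 1.26-fold over this time, against 1.81-fold and 1.45-fold in the wildtype series. The difference of -0.36 ± 0.17 did not pass (limma adjusted p 0.282). In Melys ran went up 1.54-fold, and the difference of -0.08 had an interval from -0.53 to 0.37. For rangap1b, Melys went from 24.0 to 32.5 FPKM while both wildtype series went down, a difference of 0.999 ± 0.22 (adjusted p 0.196). In MZnup133, Melys and Tgnup133 0 of the 7 passed, where 0.0889% (0.0296% higher, 0.0593% lower), 0% and 0% of genes passed. An unadjusted p under 0.05 was reached by 0, 2 and 0 of the 7, and by 3120, 2282 and 1009 of the 13493 genes tested. The lone libraries of a line were assumed here to vary like the wildtype libraries.

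Proportions between members are given as a description, with no test. The ran level per rcc1 level was 0.710, 0.824 and 0.939 in Melys, and 1.05 to 1.61 in the other 12 libraries. The ran level per ranbp1 level was 2.55 to 2.94 in Melys, 3.07 to 3.63 in Tgnup133, 3.45 to 3.84 in wildtype and 3.70 to 4.58 in MZnup133. The Melys libraries were thus the lowest in both ratios, next to Tgnup133, whose lowest library was the nearest in each. The ratio of ran to rcc1 in MZnup133 stayed between 1.12 and 1.18 at all stages, while it went from 1.14 to 1.61 in the matched wildtype. Over all 7 genes, the summed level was 0.289% of the library's FPKM at 3 hpf and 0.406% at 4.5 hpf in wildtype of the nup133 set, and 0.259% and 0.326% in MZnup133. It was 0.285% and 0.357% in wildtype of the elys set, and 0.233% and 0.299% in Melys.

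**Figure D4:**
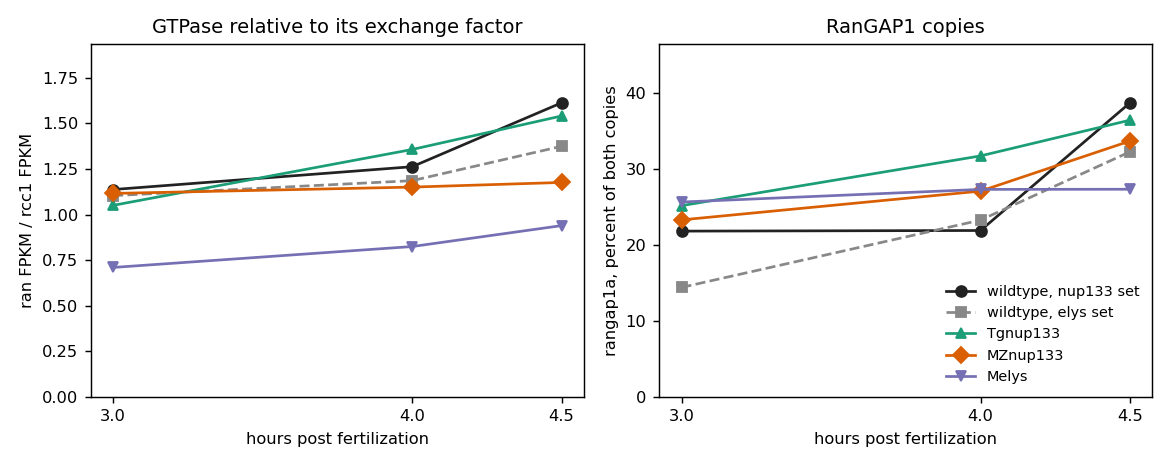
Left, the ratio of ran to rcc1 FPKM, and right, rangap1a as a percentage of the summed FPKM of rangap1a and rangap1b, each against stage with 1 library per point. The 3 Melys ratios of ran to rcc1 lie below 1, and the rangap1a share is higher at 4.5 hpf than at 3 hpf in every series.

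The members varied together in part. Across the 15 libraries the log2 levels of rcc1 and ranbp1 had a Pearson r of 0.93, ran and ranbp1 0.85, and ran and rcc1 0.83. In contrast, ran and ranbp2 had -0.02 and ran and rangap1b -0.45. These are descriptions over libraries that share stage and control set. Among other genes averaging at least 5 FPKM, the closest to ran was sumo2b (r = 0.98), which encodes a SUMO protein, the kind of small modifier that is attached to mammalian RanGAP1 at the pore. It stood at 96.7, 143 and 179 FPKM in wildtype of the nup133 set, 93.9, 109 and 126 in that of the elys set, 86.7, 88.0 and 122 in MZnup133, and 62.2, 75.5 and 91.6 in Melys. Next to ran came the gene ENSDARG00000105127 and the 14-3-3 gene ywhae1 (both 0.96).

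The genes closest to ranbp1 were thrap3b (0.98), ncl, which encodes the nucleolar protein nucleolin (0.98), and the translation factor gene eif1b (0.98). For rcc1 they were the cathepsin gene ctsla (0.97), mfap1 (0.96) and again eif1b (0.96). For nutf2l they were pacsin2 (0.93), the coatomer gene copb1 (0.92) and the serine synthesis gene phgdh (0.91). For ranbp2 the DNA repair gene mgmt (0.93), si:ch211-261a10.5 (0.91) and the gene ENSDARG00000092181 (0.90) were closest. The values were lower for rangap1a, with zgc:56095 (0.87), oscp1a (0.86) and eif3ha (0.85), and for rangap1b, with ubl3b (0.91), copz2 (0.88) and atp6v1c1a (0.87).

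Genes linked to Ran by function or only by name were read from 4 lists, which hold 44 genes tested. Of the 44, 43.2% passed over time in wildtype, against 37% of all genes, 25% in MZnup133, against 22%, and 13.6% in Melys, against 10.1%, so the share called lay near that of all genes. The shares of all genes that rose and fell were 14.1% and 22.8% over time, 13.7% and 8.32% in MZnup133, and 5.48% and 4.65% in Melys, and the counts of each list stand against these. Of 22 transport receptor genes that bind Ran-GTP, 17 were found under the listed symbols and tested. Over time in wildtype 2 of them rose and 3 fell, with a median of -0.01 against -0.16 for all genes, and xpo6, an exportin gene, fell by 2.35 ± 0.20 (limma adjusted p 0.00387) and ipo7, an importin gene, by 0.81 ± 0.10 (0.00695). In MZnup133 2 rose and 2 fell, with a median of 0.03 against 0.15. The 2 that fell were xpo6, listed at 0 at all stages against 152, 111 and 34.8 FPKM in wildtype, and the importin gene ipo9, at 10.5, 11.9 and 15.1 FPKM against 48.2, 54.8 and 55.8. In Melys 3 rose and 0 fell, with a median of 0.18 against 0.07, and the importin gene ipo13 rose by 1.16 ± 0.20 (adjusted p 0.00709). With median-ratio scaling these counts were 7 higher and 3 lower over time, 0 and 2 in MZnup133, and 2 and 0 in Melys.

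The 9 genes of the SUMO machinery that modifies RanGAP1 included 6 that rose and 1 that fell in wildtype, with a median of 0.50. The one that fell, ube2ib, a copy of the gene for the SUMO conjugating enzyme Ubc9, fell by 1.60 ± 0.16 (limma adjusted p 0.00509). In MZnup133 2 fell and 0 rose, with a median of -0.17 against 0.15, among them sumo2b by 0.47 ± 0.13 (adjusted p 0.029). In Melys 1 rose and 1 fell, and ube2ia, the other Ubc9 gene, rose by 0.72 ± 0.13 (adjusted p 0.00973). Of 9 other Ran-associated genes, 1 rose and 1 fell over time. In MZnup133 2 rose and 0 fell, which were ranbp10 (1.38 ± 0.37, adjusted p 0.0275) and ranbp3a (0.90 ± 0.21, adjusted p 0.0148), an export cofactor gene by its mammalian counterpart. In Melys limma called 0 of these 9, with 1 at an unadjusted p under 0.05, as had 3638 of the 13493 genes tested. With median-ratio scaling 1 of the 9 SUMO genes fell in MZnup133 in place of 2, and 1 of the other Ran-associated genes fell beside the 2 that rose.

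Among 9 genes for spindle factors that Ran-GTP regulates in other vertebrates, 1 rose and 4 fell in wildtype, with a median of -0.21. The microtubule-binding genes nusap1 fell by 1.61 ± 0.10 (limma adjusted p 0.00226) and tpx2 by 1.30 ± 0.19 (0.0114). In MZnup133 3 rose and 0 fell, with a median of 0.55 against 0.15, and hmmr rose by 1.09 ± 0.21 (adjusted p 0.00715). In Melys 1 rose, numa1, by 1.47 ± 0.37 (adjusted p 0.0344). The numa1 difference in MZnup133 was 1.13 ± 0.37 and did not pass (adjusted p 0.0543). With median-ratio scaling 3 of these 9 rose and 2 fell over time, with a median of 0.07 in place of -0.21, 2 rose in MZnup133 and 0 in Melys. In Tgnup133 0 genes of the 4 lists passed in limma. Among the 44 list genes tested, 3 receptor, 0 SUMO, 1 other Ran-associated and 2 spindle genes had an unadjusted p under 0.05. Of all 13493 genes tested 1998 did.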

How the data were processed

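The submitters' processing notes name GRCz11 as the genome build and list Cufflinks 2.2.1, STAR 2.5.3a and Trim Galore, with options and annotation not given in the sources used here. Deposited values are FPKM per gene and library from the authors, with no counts, so depth is unknown and no counting interval is given. Of 23800 lines, 74 repeated another and were dropped. Wildtype columns were assigned to a control set by the leading number they share with that set's mutant columns.

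Tests used limma 3.58.1 in R 4.3.3 on log2(FPKM + 1), which understates changes of low genes, for genes averaging at least 1 FPKM. They were two-sided, with a variance trend, Benjamini-Hochberg adjustment over all 13493 genes and a threshold of 0.05. Lines were compared over 3 stages by fitting 1 effect per line beside a level for each stage of each control set (6 residual and 3.52 prior degrees of freedom). Changes over time used a mean per genotype and stage plus a term for the control set (2 and 2.36), where lone libraries are assumed to vary like wildtype. The fits were also run on data simulated from the same designs with independent normal noise. Such data cannot check the use of stages as replicates, or the assumption that lone libraries vary like wildtype. Alternatives were a pseudocount of 0.1, no filter, median-ratio scaling, equal FPKM sums, no control set term, and leaving out each wildtype library or stage. The members and lists were chosen with earlier results of these data known. Named genes are the 7 members, the 3 genes closest to each by Pearson correlation, and genes from the lists. The list genes were taken from the 2 of a list with the largest absolute difference in a comparison, and most of those named passed. Some larger differences that did not pass are left out, as for sumo2a in MZnup133 (0.62, limma adjusted p 0.422) and in Melys (1.53, 0.113). No coordinates or sequences are printed, since none of the build used were at hand.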

Additional observations from a re-analysis of the deposited data

Results flagged for a closer look

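Of the 44 genes tested from the lists, 3 (6.82%, against 5.27% of all genes) differed between the effect of MZnup133 and that of Melys. The limma test was of the difference itself. The exportin gene xpo6 was listed at 0 in MZnup133 at all 3 stages, against 152, 111 and 34.8 FPKM in wildtype, and had 132, 113 and 36.1 FPKM in Melys, against 120.2, 54.5 and 18.8. The fitted difference of the effects was -7.10 ± 0.59 (adjusted p 0.00015), a size that depends on the pseudocount, and it did not pass without the 4 hpf libraries. The importin gene ipo9 had 10.5, 11.9 and 15.1 FPKM in MZnup133, against 48.2, 54.8 and 55.8, and 59.98, 60.6 and 73.1 in Melys, against 34.0, 45.1 and 49.0. The difference was -2.60 ± 0.19 (adjusted p 7.33e-05), and it passed under all 14 alternatives.

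The gene rae1, whose product takes part in RNA export and in spindle assembly in other vertebrates, had 82.0, 78.8 and 86.1 FPKM in MZnup133, against 39.3, 45.8 and 76.4 in wildtype. In Melys it had 37.7, 51.7 and 53.2, against 53.6, 62.6 and 72.7. The difference of 1.07 ± 0.24 (adjusted p 0.0333) passed under 4 of 14 alternatives, from 0.79 to 1.31 in size.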

How the results depend on the processing

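Members had 9 calls over time or against matched wildtype (4 over time, 2 in MZnup133, 3 in Melys). Each kept its direction under all of the 11 or 14 alternatives run for it. They passed in 8, 2, 8 and 2 of 11 for ran, rcc1, ranbp1 and rangap1b over time, in 6 and 12 of 14 for ran and ranbp1 in MZnup133, and in 9, 11 and 8 of 14 for ran, ranbp2 and nutf2l in Melys. The call of ranbp1 in MZnup133 against Tgnup133 also kept its direction and passed in 13 of 14. The number of the 7 genes called from 3 to 4.5 hpf went from 4 to 0 with no filter on low values and to 2 with no control set term, and ranged from 0 to 2 when 1 wildtype library was left out. For MZnup133 it went from 2 to 1 with no filter, to 4 with median-ratio scaling and to 4 with no control set term, and ranged from 0 to 3 when a wildtype library or a stage was left out. For Melys it went from 3 to 2 with no filter (nutf2l lost), stayed at 3 with no control set term (ranbp2 lost, ranbp1 gained), and ranged from 0 to 3 in the same way. For Tgnup133 it went from 0 to 1 with no control set term (ranbp2), and for the difference of MZnup133 and Melys from 0 to 1 (ran, whose difference was then 0.42 with an adjusted p of 0.0441). For MZnup133 against Tgnup133 it went from 1 to 5 with median-ratio scaling and ranged from 0 to 3 when a library or stage was left out. The cause of these shifts was not tested. Where a library or stage is left out, fewer libraries also remain for the fit. Equal FPKM sums cost the rcc1 call over time (0.18, adjusted p 0.0916), and a pseudocount of 0.1 changed no call of a member.

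Counts over all genes moved too. From 3 to 4.5 hpf 4986 genes passed, 2723 with no filter and 1304 to 3189 without 1 wildtype library. In MZnup133 2968 passed, 1316 to 2757 without 1 wildtype library and 232 to 4020 without 1 stage. In Melys 1368 passed, 2562 with no control set term and as few as 147 without the 4 hpf libraries. In Tgnup133 263 passed, 606 with no control set term and as few as 1 without the 4 hpf libraries. From 3 to 4 hpf 937 passed and 80 with no filter, and from 4 to 4.5 hpf 674 and 0. From 3 to 4.5 hpf against wildtype, no filter gave 648, 679 and 641 genes in MZnup133, Melys and Tgnup133, in place of 12, 0 and 0, and no control set term gave 59, 2 and 0. The difference of the MZnup133 and Melys effects had 711 genes, 1923 with no control set term and as few as 46 without 1 stage. Of the list genes named, xpo6 and ipo9 in MZnup133 passed under all 14 alternatives, while sumo2b and ranbp10 passed under 8 and 8, ranbp3a under 11, hmmr under 12, and in Melys ipo13 under 9, ube2ia under 10 and numa1 under 6. No pairing beyond control set and stage was possible, because the labels carry no replicate numbers to use as a further block. The match of each line to its own wildtype of a stage is part of the line fits, and the fit with no control set term drops it.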

Other observations

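The NTF2 gene has a second copy, nutf2, which was read beside nutf2l. It was the lower copy in every library, at 18.9, 21.7 and 29.7 FPKM at 3, 4 and 4.5 hpf in wildtype of the nup133 set and at 19.2, 21.0 and 20.3 in that of the elys set. In Melys it had 17.7, 22.6 and 7.32 FPKM, so the 4.5 hpf library was the lowest of all 15, while nutf2l at that stage had 105 FPKM. Over 3 stages its difference in Melys was -0.46 ± 0.28 (limma adjusted p 0.323).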
